A study of Mus musculus with 35 samples.

Results

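M2-like tissue-resident macrophages of the spleen and the bone marrow were compared with SatM of the same tissues. SatM (segregated-nucleus-containing atypical monocytes) are monocytes that the labels tie to fibrosis. The comparison was defined by the sample titles and not by measured values, and it used 4 of the 35 arrays of the series: 1 array of M2-like macrophages from the spleen, 1 from the bone marrow, 1 of SatM from the spleen and 1 of SatM from the bone marrow. All cells came from male C57BL/6J mice aged 8 weeks, with no treatment, transgene or deletion named, and were sorted by flow cytometry before total RNA was hybridised to Affymetrix Mouse430_2 arrays. The antibodies of the macrophage sort are not given in the sources used here. The labels of neighbouring samples name Msr1 and Ceacam1 as surface markers by which other monocytes were sorted from SatM, so the values of these 2 genes describe the sort. The 4 arrays belong to a panel of 15, which also held SatM of blood and lung, 3 kinds of other Ly6C-negative monocytes and lung macrophages. The study compared various cell types of the innate immune system, and the question here was which genes set resident macrophages apart from SatM in both tissues and which did so in one tissue.

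M2-like is a name for macrophages with scavenger receptors and growth factors that are associated with tissue upkeep and repair. In the spleen, red pulp macrophages engulf aged red blood cells, break down their heme and return the iron to the blood. In the bone marrow, macrophages sit at the centre of islands of maturing red cells and take up the nuclei these cells shed. Both depend on receptors for dying cells, on heme oxygenase, on the iron exporter ferroportin and on the transcription factor Spi-C.

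The deposited values are on a log2 scale, so a difference of 1 is a doubling. The smallest value was 2.30 on every array, and 45.4% to 47.4% of probe sets had it on the 4 compared arrays. A gene within 0.1 of this value is called at the floor here. A difference against a group with both arrays at the floor is a lower bound and is given as "at least N-fold". Of 18193 genes with a probe set, 11734 passed the filter on dim genes and were tested. The labels do not say whether the arrays came from separate animals or pools, and the 2 arrays of a group came from different tissues. The p-values and SE come from a fit over the 15 panel arrays. They measure mainly the spread of the other panel arrays and not that between animals. In sorted cells as in tissue, fewer cells of a type and less RNA per cell cannot be told apart.

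The label was set beside 4 marker genes that came with the comparison. They were chosen with earlier results of these data known, so their levels are a description. Cd163, the receptor for haptoglobin-bound hemoglobin, measured 13.39 in spleen and 14.16 in marrow M2-like macrophages, against 4.45 in spleen and 5.95 in marrow SatM. Stab2, a receptor for hyaluronan and for dying cells, measured 10.92 and 10.63 in spleen and marrow M2-like macrophages and was at the floor in both SatM arrays. Axl, a receptor kinase for apoptotic cells, and Igf1, a growth factor, were also far above SatM on both macrophage arrays. Among general macrophage genes, Adgre1, which encodes the surface antigen most used to mark mouse macrophages, measured 11.51 and 11.64 in spleen and marrow M2-like macrophages, against 9.85 and 10.21 in spleen and marrow SatM. Csf1r, the receptor for the macrophage growth factor, measured 14.38 and 13.61 in M2-like macrophages of spleen and marrow, against 13.68 and 13.21 in SatM of spleen and marrow. Neither was called (Adgre1 difference 1.54, adjusted p = 0.647; Csf1r 0.55, adjusted p = 0.965). Itgam, which encodes CD11b, was at the floor in both macrophage arrays and measured 6.00 and 5.17 in spleen and marrow SatM, at least 9.77-fold lower, a difference that was not called (adjusted p = 0.0554).

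The promoter windows of 4 genes that rose in both tissues, and whose calls did not depend on any single array, are shown. Each window shown held a match to a motif named below. Calls of Cd163, Blvra, Nr1h3 and Epor did not depend on any single array either, but their windows held no match and are not printed. The windows are 300 bases around the gene start from the RefSeq table (build GRCm38.p6), 5′ to 3′ on the gene's strand. Capitals mark matches to GAGGAA, a motif of the ETS type bound by Spi1 and Spi-C, to TGAGTCA, a motif of the AP-1 and Maf type, and to AGGTCA, a nuclear receptor half-site, on either strand. On the opposite strand GAGGAA reads TTCCTC. No 2 of the matches printed overlap.

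The Stab2 window (chr10:87007893-87008192, minus strand) held 2 half-sites, the Axl window (chr7:25788684-25788983, minus strand) 1 ETS motif, the Mrc1 window (chr2:14229164-14229463, plus strand) 3 ETS motifs, and the Igf1 window (chr10:87860861-87861160, plus strand) 1 half-site and 1 ETS motif.
Stab2: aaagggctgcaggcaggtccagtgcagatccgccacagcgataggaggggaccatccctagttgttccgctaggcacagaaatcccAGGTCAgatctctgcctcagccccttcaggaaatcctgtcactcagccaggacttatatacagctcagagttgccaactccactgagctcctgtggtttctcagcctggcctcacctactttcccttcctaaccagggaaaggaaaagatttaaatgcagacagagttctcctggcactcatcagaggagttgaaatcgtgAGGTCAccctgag
Axl: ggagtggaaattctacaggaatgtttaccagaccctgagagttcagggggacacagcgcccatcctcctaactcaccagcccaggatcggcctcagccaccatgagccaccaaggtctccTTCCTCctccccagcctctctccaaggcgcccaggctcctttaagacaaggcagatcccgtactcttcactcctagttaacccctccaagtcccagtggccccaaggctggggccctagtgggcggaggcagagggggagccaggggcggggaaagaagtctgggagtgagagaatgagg
Mrc1: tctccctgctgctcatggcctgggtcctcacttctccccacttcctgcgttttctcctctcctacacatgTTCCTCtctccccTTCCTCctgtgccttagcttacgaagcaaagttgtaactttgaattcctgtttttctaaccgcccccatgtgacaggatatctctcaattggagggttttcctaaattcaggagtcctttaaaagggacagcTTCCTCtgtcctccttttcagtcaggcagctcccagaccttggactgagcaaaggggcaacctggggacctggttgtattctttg
Igf1: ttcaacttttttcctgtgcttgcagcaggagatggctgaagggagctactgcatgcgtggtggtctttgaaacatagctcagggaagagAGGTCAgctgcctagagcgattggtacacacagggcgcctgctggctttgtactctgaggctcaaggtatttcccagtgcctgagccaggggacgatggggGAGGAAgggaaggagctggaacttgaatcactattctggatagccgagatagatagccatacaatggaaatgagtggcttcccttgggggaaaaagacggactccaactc

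The windows of Cd163, Blvra, Blvrb, Spic, Nr1h3 and Epor held none of these letters, which says nothing about binding. Windows were found for 337 of the 437 genes that rose and 215 of the 260 that fell. GAGGAA was in 27% of the windows of risen genes and 31.2% of those of fallen genes, beside 27% of all genes tested and 28.3% of all windows of the table. AGGTCA was in 11.3% and 12.6% of the windows of risen and fallen genes, beside 12.3% of genes tested and 16% of all windows. TGAGTCA was in 3.86% and 7.44% of the windows of risen and fallen genes, beside 3.61% of genes tested and 5.17% of all windows. These shares are descriptions of the windows and were not tested.

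M2-like macrophages differed from SatM by many genes, and mostly in the same way in spleen and marrow. By limma, fitted over the 15 panel arrays with terms for cell type and tissue, 697 genes (5.94% of those tested) had an adjusted p under 0.05 and a difference of at least 1. Of these, 437 (3.72%) were higher and 260 (2.22%) lower in M2-like macrophages. The difference was at least 1 in both tissues for 432 of the higher and 247 of the lower genes. The groups did not overlap for 434 and all 260 of them, beside 46.5% of all genes tested (26.6% higher, 19.9% lower). SatM lay at the floor on both arrays for 106 of the higher genes, and M2-like macrophages for 20 of the lower genes. Of the called genes, 22 higher ones passed the filter on dim genes only through the 2 macrophage arrays and 1 lower one only through the 2 SatM arrays, so that they had to differ. For 31 called genes all 11 other panel arrays were at the floor, so those arrays add almost no spread to the p-values. In 484 of the 679 genes alike in both tissues, spleen and marrow macrophages lay within 1 of each other.

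The count of calls depended on single arrays. It was 202 without M2-like macrophages of spleen, 286 without those of marrow, 125 without SatM of spleen and 153 without SatM of marrow, and 75 genes (62 higher, 13 lower) were called in every one of these fits as well as over all arrays. The 4 compared arrays fitted alone gave 0 calls by limma, with 2881 genes at an unadjusted p under 0.05, against 2506 over the panel. Of the 5 residual degrees of freedom of the panel fit, 1 comes from the 4 compared arrays. A call described below as kept or lost without an array refers to these 4 fits, and a range in brackets is that of their adjusted p.

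**Figure D1:**
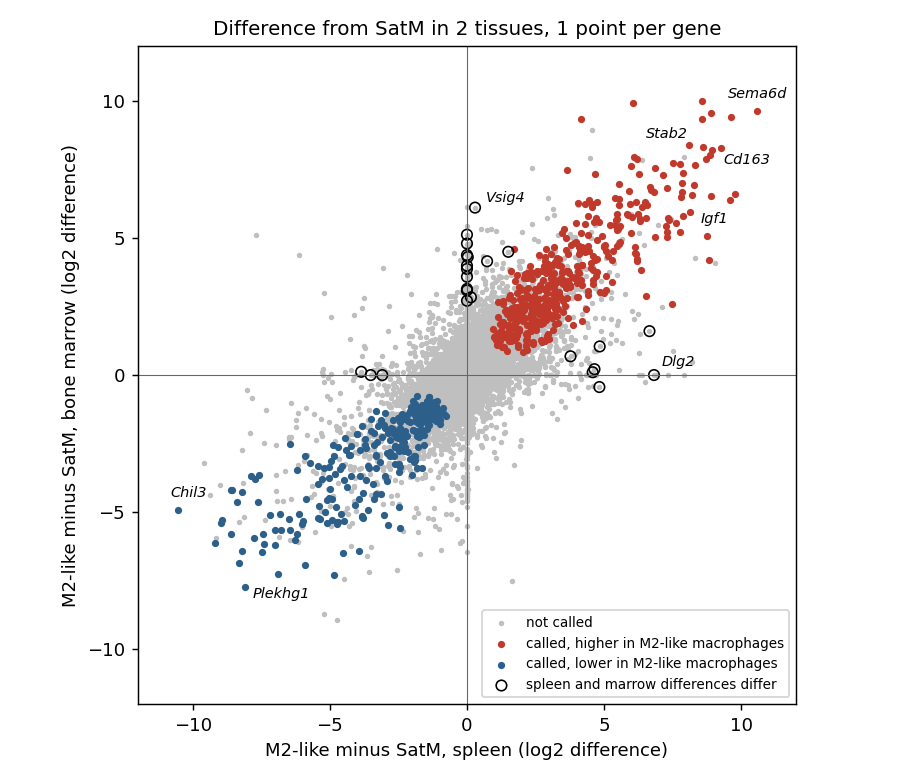
Difference between M2-like macrophages and SatM in spleen (x axis) and in bone marrow (y axis), on the log2 scale, 1 point for each of the 11734 genes tested. Red and blue points are the 437 higher and 260 lower genes, which lie along the diagonal, and circles mark 24 genes whose spleen and marrow differences differed from each other.

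Across all genes tested, the spleen difference and the marrow difference went together (Pearson r = 0.737 across genes, which are not independent replicates and share the arrays' normalization). Of the 1511 genes that differed by at least 2 in spleen, 1177 differed by at least 1 in the same direction in marrow and 23 in the opposite direction. Of the 1526 genes that differed by at least 2 in marrow, 1151 did so in spleen and 30 went the opposite way. The plot of spleen against marrow differences shows this as a cloud along the diagonal. The median difference over all genes tested was 0.00.

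Scavenger receptors and lectins were among the genes that rose most. Of 15 tested, 4 rose (Cd163, Stab2, Mrc1 and Cd5l) and 1 fell (Olr1), with a median difference of 0.97 over the list. Of all genes tested, 3.72% were higher and 2.22% lower. Counts of called members in this and all later lists are to be read beside these shares. Cd163 was higher by 8.58 ± 0.77 (SE of the fit over the 15 panel arrays, n = 2 arrays per group, limma adjusted p = 0.00219). Stab2 was at least 356-fold higher (limma adjusted p = 7.4e-06), and its value was at the floor in lung macrophages and in SatM of blood and lung too. Mrc1, the mannose receptor, measured 13.26 and 13.58 in spleen and marrow M2-like macrophages, against 6.43 and 6.92 in spleen and marrow SatM (6.75 ± 0.54, SE, limma adjusted p = 0.00113). In lung Mrc1 was also high, at 12.38 in SatM and 12.84 and 12.05 in macrophages. Cd163 measured 2.91 in lung SatM and was at the floor in lung macrophages. These 3 calls were kept without each of the 4 arrays (adjusted p from 0.0161 to 0.0338 for Cd163, 0.000158 to 0.000885 for Stab2 and 0.0161 to 0.023 for Mrc1).

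Cd5l, a secreted survival and lipid regulator of macrophages, measured 11.54 and 12.77 in spleen and marrow M2-like macrophages, against 7.39 and 3.43 in spleen and marrow SatM (6.75, limma adjusted p = 0.0198), and its call was lost without the marrow M2-like array (adjusted p = 0.103). Olr1, which encodes the oxidised LDL receptor LOX-1, went the other way. It measured 2.84 and 4.52 in spleen and marrow M2-like macrophages and 11.14 and 11.37 in spleen and marrow SatM (-7.58, limma adjusted p = 0.033), a call lost without any one of the 4 arrays (0.114 to 0.209). Msr1, a scavenger receptor that served as a sort marker of SatM, measured 7.66 and 6.60 in spleen and marrow M2-like macrophages, against 9.23 and 8.24 in spleen and marrow SatM, and was not called (-1.60, adjusted p = 0.127). One of its 4 tested probe sets had the opposite sign.

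Some receptors for apoptotic cells rose. Of 26 genes of apoptotic cell uptake tested, 4 rose and 0 fell (median 0.69), beside 3.72% and 2.22% of all genes tested. Beside Stab2 these were Axl, Mertk and Timd4. Axl measured 11.85 and 12.88 in spleen and marrow M2-like macrophages, against 3.56 and 5.95 in spleen and marrow SatM (7.61 ± 0.53, SE, limma adjusted p = 0.000592, kept without each array). Lung SatM measured 11.54 for Axl and 7.97 for Mertk. Lung macrophages measured 11.62 and 10.92 for Axl and 9.85 and 9.25 for Mertk. Timd4 was at the floor on these lung arrays. Mertk, the related receptor kinase of resident macrophages, measured 11.41 and 11.08 in spleen and marrow M2-like macrophages, against 4.26 and 3.79 in spleen and marrow SatM (7.22, limma adjusted p = 0.0135), but its call was lost without any one array (0.0709 to 0.123). Timd4, which binds phosphatidylserine on dying cells, measured 8.76 and 10.23 in spleen and marrow M2-like macrophages, against 2.66 and 2.30 in spleen and marrow SatM (7.02, limma adjusted p = 0.00823). Its call held without spleen M2-like macrophages (adjusted p = 0.0254) and was lost without each of the other 3 arrays (up to 0.0849).

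The soluble bridges that link these receptors to dying cells did not pass the test. Gas6, the ligand of Axl and Mertk, measured 5.47 and 8.14 in spleen and marrow M2-like macrophages and was at the floor in both SatM arrays, at least 22.6-fold higher (adjusted p = 0.0665, not called). The C1q chains, which opsonise dying cells, were all higher in both tissues and none was called (C1qa 6.20, adjusted p = 0.263; C1qb 3.73, adjusted p = 0.308; C1qc 6.75, adjusted p = 0.225). C1qa measured 12.16 and 12.56 in spleen and marrow M2-like macrophages, against 7.67 and 4.65 in spleen and marrow SatM. Thbs1, another bridge, lay below SatM in both tissues, also without a call (-6.66, adjusted p = 0.175). On the 2 other bone marrow SatM arrays of the series it measured 3.39 and 2.30.

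Genes of resident macrophage adhesion and identity had 4 of 17 tested members higher and 0 lower (median 2.67), beside 3.72% and 2.22% of all genes tested. One of the 4, Itga9, passed the filter only through the macrophage arrays. This gene of an integrin chain measured 9.16 and 7.34 in spleen and marrow M2-like macrophages and was at the floor in both SatM arrays, at least 62.1-fold higher, which is given as a level and not as a test. Vcam1, the adhesion molecule of erythroblastic islands, measured 14.95 and 15.13 in spleen and marrow M2-like macrophages, against 6.64 and 10.86 in spleen and marrow SatM. Its values were 3.33 and 6.45 on the 2 other bone marrow SatM arrays of the series. Siglec1, the sialic acid receptor CD169, measured 6.81 and 7.53 in spleen and marrow M2-like macrophages and was at the floor in both SatM arrays. Neither passed the test (Vcam1 6.29, limma adjusted p = 0.0759, and Siglec1 at least 29.4-fold, limma adjusted p = 0.0748), although the groups did not overlap for either. With every probe set tested, 2 of 3 were called higher for Vcam1 and 0 of 2 for Siglec1.

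**Figure D2:**
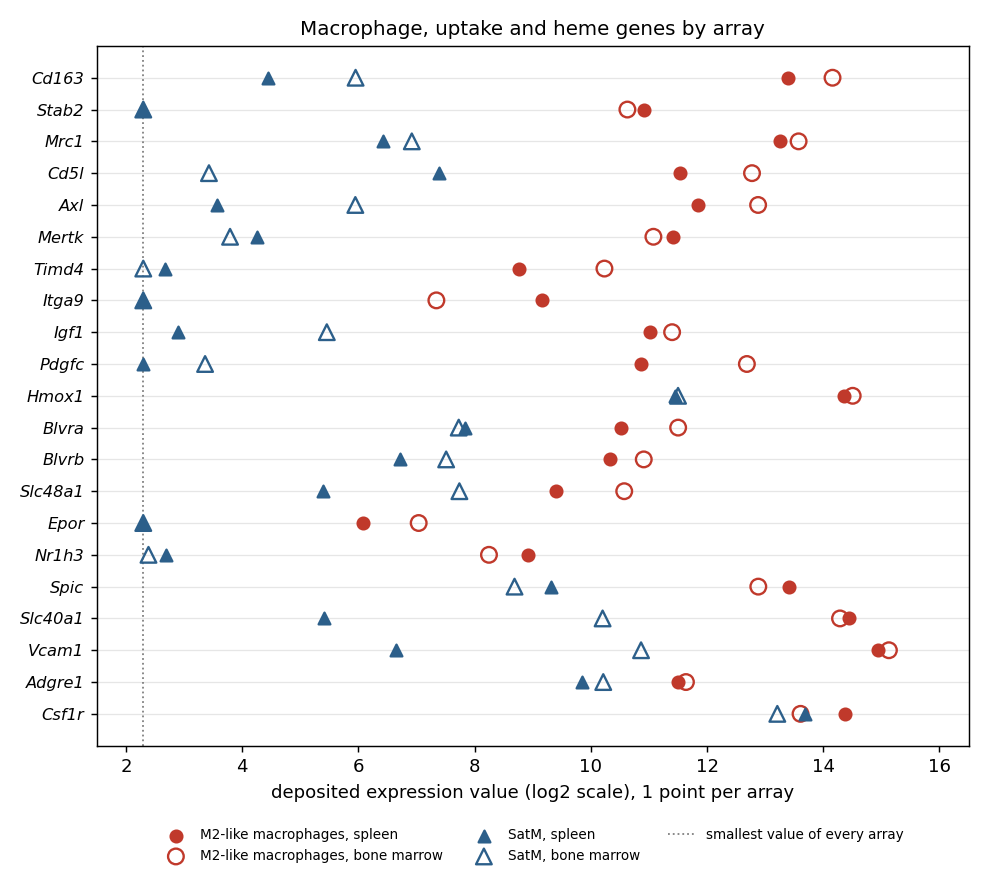
Deposited log2 expression values of 21 macrophage, uptake and heme genes (x axis), 1 point per array, in M2-like macrophages (red circles) and SatM (blue triangles) of spleen (filled) and bone marrow (open). The dotted line is the smallest value of every array, 2.30, where SatM lie for Stab2, Itga9 and Epor.

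Genes that take up heme and break it down rose in both tissues. Of 24 iron and heme genes tested, 7 rose (Cd163, Hmox1, Slc48a1, Blvra, Blvrb, Aco1 and Epor) and 2 fell (Hp and Lcn2), with a list median of 1.15. Of all genes tested, 3.72% rose and 2.22% fell. Hmox1, heme oxygenase, which opens the heme ring, measured 14.36 and 14.51 in spleen and marrow M2-like macrophages, against 11.45 and 11.50 in spleen and marrow SatM (2.95 ± 0.50, SE, limma adjusted p = 0.0233). Slc48a1, the transporter that carries heme out of the lysosome, measured 9.40 and 10.57 in spleen and marrow M2-like macrophages, against 5.39 and 7.74 in spleen and marrow SatM (3.42, limma adjusted p = 0.0452). Both biliverdin reductases, which reduce the product of heme oxygenase, were higher. Blvra measured 10.52 and 11.50 in spleen and marrow M2-like macrophages, against 7.83 and 7.73 in spleen and marrow SatM (3.23 ± 0.35, SE, limma adjusted p = 0.00429), and kept its call without each array. Blvrb measured 10.33 and 10.91 in spleen and marrow M2-like macrophages, against 6.71 and 7.51 in spleen and marrow SatM (3.51, limma adjusted p = 0.0309). Lung macrophages were also high, at 11.31 and 10.64 for Blvra and 10.15 and 9.75 for Blvrb. Aco1 measured 9.59 and 8.98 there, against 8.26 and 9.18 in spleen and marrow M2-like macrophages. Hmox1 (11.33 and 11.66), Slc48a1 (8.38 and 7.67), Cd163 and Epor lay below both M2-like arrays in lung macrophages. The calls of Hmox1 (0.117 to 0.173), Slc48a1 (0.152 to 0.286), Blvrb (0.0932 to 0.217) and Aco1, an iron-sensing RNA-binding protein (1.99, adjusted p = 0.0345; 0.0849 to 0.218), were lost without any one array.

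The iron exporter and the regulator of red pulp macrophages were higher on both arrays but were not called. Slc40a1, ferroportin, measured 14.45 and 14.29 in spleen and marrow M2-like macrophages, against 5.42 and 10.20 in spleen and marrow SatM (6.56, adjusted p = 0.114). Spic measured 13.41 and 12.88 in spleen and marrow M2-like macrophages, against 9.31 and 8.69 in spleen and marrow SatM (4.15, limma adjusted p = 0.0911). With every probe set tested, 1 of 2 was called higher for Slc40a1 and 0 of 2 for Spic. The macrophage values of both genes lay close together in the 2 tissues, and the SatM values of Slc40a1 were far apart. Slc40a1 measured 6.24 and 6.32 on the 2 other bone marrow SatM arrays of the series, below the panel's marrow SatM array. Spic measured 7.49 and 6.96 there. The 2 fallen members encode secreted neutrophil and monocyte proteins that bind hemoglobin and iron-carrying siderophores. Hp, haptoglobin, measured 2.60 and 8.14 in spleen and marrow M2-like macrophages, against 10.99 and 12.76 in spleen and marrow SatM (-6.51, limma adjusted p = 0.0453). Lcn2, lipocalin 2, measured 2.77 and 8.90 in spleen and marrow M2-like macrophages, against 11.70 and 14.18 in spleen and marrow SatM (-7.11, limma adjusted p = 0.0454), and both calls were lost without any one array (0.068 to 0.28).

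Epor, the receptor for the red cell hormone erythropoietin, measured 6.08 and 7.04 in spleen and marrow M2-like macrophages and was at the floor in both SatM arrays, at least 19.2-fold higher (limma adjusted p = 0.000524, kept without each array). Erythroid genes as a list had 3 of 11 tested members higher (Epor, Alas2 and Slc4a1) and 0 lower, and their summed linear level above the floor was 843 in spleen and 13233 in marrow M2-like macrophages, against 588 in spleen and 3980 in marrow SatM. Most of both spleen sums came from Tfrc, the transferrin receptor, at 9.18 in spleen macrophages and 9.18 in spleen SatM. The other tested members measured up to 7.14 (Car2) in spleen macrophages and up to 3.67 (Ermap) in spleen SatM. Alas2, the first enzyme of heme synthesis in red cells, measured 5.90 and 9.40 in spleen and marrow M2-like macrophages, against 2.30 and 6.22 in spleen and marrow SatM (3.39, limma adjusted p = 0.00255, kept without each array), and its groups overlap, since marrow SatM lay above spleen macrophages. Slc4a1, the red cell anion exchanger, measured 4.26 and 11.76 in spleen and marrow M2-like macrophages, against 2.30 and 9.39 in spleen and marrow SatM (2.16, limma adjusted p = 0.0157, lost without any one array, 0.0764 to 0.122). Its groups overlap in the same way. The part of red cell RNA in the values of Epor and the other heme genes was not tested.

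Nr1h3, which encodes the lipid sensor LXR alpha, a nuclear receptor needed by some splenic macrophages, was the member of 27 macrophage transcription factors tested that rose. It measured 8.92 and 8.25 in spleen and marrow M2-like macrophages, against 2.69 and 2.39 in spleen and marrow SatM (6.05 ± 0.31, SE, limma adjusted p = 0.000193, kept without each array). Its partner Rxra measured 11.41 and 10.45 in spleen and marrow M2-like macrophages, against 8.04 and 7.56 in spleen and marrow SatM, and missed the threshold (3.13, adjusted p = 0.0582). Nfe2l2, the oxidative stress regulator Nrf2, fell (-1.95, limma adjusted p = 0.0171), a call kept without marrow M2-like macrophages alone (adjusted p = 0.0312, otherwise up to 0.158). Cebpb, a regulator of monocytes, measured 8.58 and 8.29 in spleen and marrow M2-like macrophages, against 10.92 and 10.55 in spleen and marrow SatM, and was not called (-2.30, limma adjusted p = 0.117). With every probe set tested, 1 of its 2 was called lower.

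The lysosome genes that were called were all higher. Of 30 tested, 6 rose (Ctsf, Acp5, Glb1, Lipa, Tpp1 and Ctsc) and 0 fell, with a list median of 1.06, and the groups did not overlap for 20 that were higher and 1 that was lower (26.6% and 19.9% of all genes tested). Lipa, the lysosomal acid lipase, measured 10.96 and 11.39 in spleen and marrow M2-like macrophages, against 8.55 and 8.94 in spleen and marrow SatM (2.43, limma adjusted p = 0.0224). The 2 other bone marrow SatM arrays of the series were nearer to macrophages, at 10.31 and 10.43 for Lipa. Tpp1 measured 9.40 and 10.15 there, against 9.09 in the panel's marrow SatM. For Acp5, Ctsf, Glb1 and Ctsc they lay close to that panel array. Acp5, the tartrate-resistant acid phosphatase, measured 11.16 and 9.73 in spleen and marrow M2-like macrophages, against 8.03 and 7.52 in spleen and marrow SatM (2.67, limma adjusted p = 0.0294). Ctsf, a cathepsin, was at the floor in both SatM arrays and at least 12.7-fold higher (limma adjusted p = 0.00605). Lung macrophages measured 11.93 and 11.36 for Lipa and 11.85 and 11.57 for Acp5. Ctsc measured 12.77 and 12.86 there, against 12.56 and 12.14 in spleen and marrow M2-like macrophages. For Glb1 and Tpp1 both lung macrophage arrays lay above spleen M2-like macrophages. Ctsf, at 3.69 and 2.42 in lung macrophages, lay below both M2-like arrays. Calls of Lipa, Acp5, Ctsc, a cathepsin, and Glb1, a beta-galactosidase, were lost without any one array (0.0612 to 0.289), that of Ctsf without either SatM array (up to 0.0711) and that of Tpp1, a peptidase, without each array other than spleen M2-like macrophages (up to 0.112). Lipid genes had 2 of 22 members higher (Nr1h3 and Lipa) and 0 lower, beside 3.72% and 2.22% of all genes tested.

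Of 26 growth factor and matrix genes tested, 2 rose and 2 fell, beside 3.72% and 2.22% of all genes tested, and 22 were not called. Pdgfc, a platelet-derived growth factor, measured 10.87 and 12.69 in spleen and marrow M2-like macrophages, against 2.30 and 3.36 in spleen and marrow SatM (8.95 ± 0.68, SE, limma adjusted p = 0.000917). In lung Pdgfc was also high, at 10.79 in SatM and 11.40 and 11.30 in macrophages. Igf1 measured 11.02 and 11.40 in spleen and marrow M2-like macrophages, against 2.89 and 5.46 in spleen and marrow SatM (7.04 ± 0.75, SE, limma adjusted p = 0.00415), and all 4 of its probe sets were called in this direction. In lung Igf1 measured 5.55 in SatM and 9.71 and 9.80 in macrophages. Pdgfc and Igf1 kept their calls without each array. Fn1, fibronectin, fell: it measured 2.54 and 6.39 in spleen and marrow M2-like macrophages, against 11.14 and 10.57 in spleen and marrow SatM (-6.39, limma adjusted p = 0.0312). The call was kept without marrow M2-like macrophages and lost without each of the other 3 arrays. On the 2 other bone marrow SatM arrays of the series Fn1 measured 3.79 and 2.58, below marrow macrophages. Hgf, hepatocyte growth factor, was lower too (-2.20, limma adjusted p = 0.0135, lost without any one array, 0.0707 to 0.13).

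Markers of alternative activation divided: of 19 tested, Mrc1, Cd163 and Igf1 rose, Chil3 fell, and the list median was -0.17. Chil3, the chitinase-like protein Ym1, measured 2.37 and 9.74 in spleen and marrow M2-like macrophages, against 12.92 and 14.67 in spleen and marrow SatM (-7.74, limma adjusted p = 0.0186, lost without spleen SatM, 0.141). Complement genes had 1 of 15 higher and 1 lower, beside 3.72% and 2.22% of all genes tested, so the count says little about the list. C2, a component of the classical pathway, measured 9.68 and 7.95 in spleen and marrow M2-like macrophages and was at the floor in both SatM arrays, at least 91.6-fold higher (limma adjusted p = 0.000539, kept without each array). C5ar1, the receptor for the C5a fragment, measured 8.58 and 9.96 in spleen and marrow M2-like macrophages, against 13.62 and 13.69 in spleen and marrow SatM (-4.39, limma adjusted p = 0.0233). That call was kept without marrow M2-like macrophages (adjusted p = 0.0479) and lost without each of the other 3 arrays (up to 0.163).

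Of the 12 largest rises, 8 were in none of the lists, and Pdgfc, Cd163, Stab2 and Ccr3 were list members. Slc16a9, a monocarboxylate transporter family member, measured 11.93 and 11.69 in spleen and marrow M2-like macrophages and was at the floor in both SatM arrays, at least 729-fold higher (limma adjusted p = 3.03e-05). Slco2b1, an organic anion transporter, measured 10.85 and 12.55 in spleen and marrow M2-like macrophages, against 2.30 and 2.56 in spleen and marrow SatM (9.27, limma adjusted p = 0.00153). Paqr9, a membrane receptor of the progestin and adipoQ family, was at least 314-fold higher (limma adjusted p = 0.00049). These 3 kept their calls without each array.

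The semaphorin gene Sema6d had the largest difference of all called genes (10.11, limma adjusted p = 0.0472), with 13.05 and 11.93 in spleen and marrow M2-like macrophages, against 2.48 and 2.30 in spleen and marrow SatM, and its call was lost without any one array (0.175 to 0.289), as were those of the hydrolase gene Cmbl (at least 599-fold, adjusted p = 0.0436; 0.195 to 0.236) and the efflux pump gene Abcc3 (8.76, adjusted p = 0.0234; 0.0997 to 0.167). Dst, which encodes the cytoskeletal linker dystonin, was higher by 8.43 (limma adjusted p = 0.00415, lost without spleen SatM). With every probe set tested, 1 of its 4 was called. It measured 9.58 in lung SatM and 11.78 and 10.08 in lung macrophages. Mpzl1, a cell surface glycoprotein, was higher by 8.20 (limma adjusted p = 0.00492, lost without spleen M2-like macrophages, 0.0513).

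Ccr3, the eotaxin receptor best known from eosinophils, measured 10.40 and 10.68 in spleen and marrow M2-like macrophages and was at the floor in both SatM arrays, at least 303-fold higher. Like Itga9 it passed the filter only through the macrophage arrays, so no test is given. It was at the floor in both lung macrophage arrays. The other eosinophil genes did not go with it. Of 8 tested, Ccr3 was the one called, and the granule genes followed the tissue: Prg2, major basic protein, was at the floor in spleen M2-like macrophages and measured 12.21 in marrow M2-like macrophages, against 4.08 in spleen and 11.78 in marrow SatM. Epx, eosinophil peroxidase, measured 2.30 and 9.49 in spleen and marrow M2-like macrophages, against 2.30 and 9.27 in spleen and marrow SatM.

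Kitl, the ligand of the stem cell receptor Kit, measured 6.76 and 8.69 in spleen and marrow M2-like macrophages and was at the floor in both SatM arrays, at least 43-fold higher, again a gene that passed the filter only through the macrophage arrays. It was the 1 called member of 9 stromal genes tested, whose summed level was 139 and 754 in spleen and marrow M2-like macrophages, against 6 and 50 in spleen and marrow SatM. Kitl itself made up most of both macrophage sums. In spleen macrophages the stromal genes Col1a1, Pdgfrb, Sparc and Cxcl12 were at the floor. In marrow, Pdgfrb measured 5.51 in macrophages and 2.45 in SatM, Sparc 5.49 in macrophages and 2.30 in SatM, Cxcl12 7.99 in macrophages and 3.19 in SatM, and Col1a1 4.20 in macrophages and 5.30 in SatM. Of 10 endothelial genes tested, Stab2 alone was called. Among all 23 measured, 6 and 11 were above the floor in spleen and marrow M2-like macrophages, against 6 in each SatM array, and Kdr, the VEGF receptor of endothelial cells, was at the floor on all 4 arrays. Clec1b, a platelet and macrophage lectin receptor, was the 1 called of 9 megakaryocyte genes (7.38, limma adjusted p = 0.0402, lost without any one array, 0.143 to 0.247). Summed levels of that list were 2920 and 4542 in spleen and marrow M2-like macrophages, against 845 and 409 in spleen and marrow SatM. Most of the spleen macrophage sum came from Clec1b itself, at 11.35. In marrow macrophages Pf4, platelet factor 4, at 11.52, made up most of the sum, with Clec1b at 9.83. The part of such cells in these results was not tested.

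Of 20 cytokine genes tested, 1 rose and 3 fell, beside 3.72% and 2.22% of all genes tested. Il18bp, which neutralises interleukin 18, measured 7.32 and 7.90 in spleen and marrow M2-like macrophages, against 3.14 and 3.25 in spleen and marrow SatM (4.42 ± 0.30, SE, limma adjusted p = 0.000592, kept without each array). Il18 itself was above SatM on both macrophage arrays and was not called (5.65, adjusted p = 0.0946). Il1rn, the interleukin 1 receptor antagonist, measured 3.07 in both macrophage arrays, against 8.19 and 8.48 in spleen and marrow SatM (limma adjusted p = 0.00977). The macrophage value was repeated exactly on 7 of the 35 arrays, and the difference is given as at least 38.4-fold lower. Its call was kept without marrow M2-like macrophages (adjusted p = 0.0436) and lost without each other array (up to 0.0992). Lif was at the floor in both macrophage arrays, against 8.51 and 8.09 in spleen and marrow SatM, at least 63.9-fold lower (limma adjusted p = 0.0356). It was at the floor on the 2 other bone marrow SatM arrays of the series too. Tnfsf13b, the B cell survival factor BAFF, fell by 4.26 (limma adjusted p = 0.0183). The calls of Lif and Tnfsf13b were lost without any one array.

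Monocyte genes were among those lower in M2-like macrophages. Ceacam1, a sort marker of SatM, measured 4.97 and 5.22 in spleen and marrow M2-like macrophages, against 12.44 and 11.67 in spleen and marrow SatM, a difference of -6.96 that describes the sort. Of 20 genes of nonclassical, patrolling monocytes, 0 rose and 4 fell (Ace, Cx3cr1, Itgal and Spn), with a list median of -2.46. Cx3cr1, the fractalkine receptor, measured 3.87 and 4.21 in spleen and marrow M2-like macrophages, against 10.31 and 9.86 in spleen and marrow SatM (-6.04, limma adjusted p = 0.0419). Ace, angiotensin-converting enzyme, was at the floor in both macrophage arrays and at least 115-fold lower (limma adjusted p = 0.0402). Itgal, the alpha chain of the integrin LFA-1, measured 7.32 and 6.70 in spleen and marrow M2-like macrophages, against 12.36 and 11.16 in spleen and marrow SatM (-4.75, limma adjusted p = 0.0083). Cx3cr1 and Ace lost their calls without any one array (0.126 to 0.248). Itgal kept its call without marrow SatM (adjusted p = 0.0472) and lost it without each other array (up to 0.0923). Spn, leukosialin, fell by 4.50 (limma adjusted p = 0.0356) and kept its call without marrow M2-like macrophages alone (adjusted p = 0.0147, otherwise up to 0.238).

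Of 14 classical monocyte genes tested, 0 rose and 6 fell (Chil3, Hp, Fn1, F5, Cd177 and F10), and the list median was -5.49. F5, coagulation factor V, was at the floor in spleen macrophages and measured 5.59 in marrow macrophages, against 9.91 and 10.22 in spleen and marrow SatM (-6.12, limma adjusted p = 0.00995, lost without either SatM array, up to 0.109). Coagulation factor X, F10, measured 2.63 and 4.04 in spleen and marrow M2-like macrophages, against 8.75 and 9.11 in spleen and marrow SatM (-5.59, limma adjusted p = 0.0032, lost without spleen SatM, 0.052). The monocyte chemokine receptor gene Ccr2 was lower in both tissues without a call (-6.14, adjusted p = 0.0693).

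Chemoattractant receptors had 5 of 20 members lower (S1pr5, Cx3cr1, Ltb4r1, C5ar1 and Cxcr4) and 1 higher, Ccr3, which passed the filter only through the macrophage arrays. Of all genes tested, 2.22% were lower and 3.72% higher. S1pr5, a sphingosine phosphate receptor of patrolling monocytes and NK cells, was at the floor in both macrophage arrays and measured 9.31 and 8.50 in spleen and marrow SatM, at least 97.3-fold lower (limma adjusted p = 0.028, lost without any one array, 0.097 to 0.19). Ltb4r1, a leukotriene B4 receptor, measured 2.55 and 3.60 in spleen and marrow M2-like macrophages, against 7.29 and 9.04 in spleen and marrow SatM (-5.09, limma adjusted p = 0.0242, lost without any one array, 0.108 to 0.19). Cxcr4, the receptor of Cxcl12, was lower by a small amount, at 13.35 and 13.07 in spleen and marrow M2-like macrophages, against 14.24 and 14.26 in spleen and marrow SatM (-1.04, limma adjusted p = 0.0447, lost without any one array, 0.128 to 0.248).

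The 12 largest falls included 3 genes known from inflammation, Clec4e, Trem1 and Saa3. Clec4e, the lectin receptor Mincle, was at the floor in spleen macrophages and measured 5.43 in marrow macrophages, against 11.47 and 11.55 in spleen and marrow SatM (-7.64, limma adjusted p = 0.0211). Trem1, an amplifier of inflammation on myeloid cells, measured 2.53 and 4.65 in spleen and marrow M2-like macrophages, against 10.72 and 11.05 in spleen and marrow SatM (-7.30, limma adjusted p = 0.0233). Saa3, an acute-phase serum amyloid, measured 2.54 and 2.62 in spleen and marrow M2-like macrophages, against 11.53 and 8.00 in spleen and marrow SatM (-7.18, limma adjusted p = 0.0192). Macrophage values of these genes lay below SatM values throughout on the 4 compared arrays. On the 2 other bone marrow SatM arrays of the series Saa3 measured 2.57 and 3.27. Clec4e kept its call without marrow M2-like macrophages and Saa3 without marrow SatM, and both lost it without each other array (up to 0.161), while Trem1 lost it without any one array (0.0503 to 0.167).

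Among the other large falls, Plekhg1 measured 2.59 in both macrophage arrays, against 9.48 and 9.84 in spleen and marrow SatM, at least 135-fold lower (limma adjusted p = 0.00268). The macrophage value was repeated exactly on 8 of the 35 arrays and is taken as the lowest this probe set gives there, so the fold is a lower bound. Of the 12 largest falls it was the one whose call was kept without each array. Krt80, a keratin, had the largest fall (-7.90, limma adjusted p = 0.0429), with 2.63 and 2.88 in spleen and marrow M2-like macrophages, against 10.71 and 10.60 in spleen and marrow SatM, and lost its call without any one array (0.113 to 0.264), as did the gap junction gene Gjb2 (-6.78, adjusted p = 0.0233; 0.0636 to 0.168). Ldlrad3, an LDL receptor family member, fell by 7.21 (limma adjusted p = 0.0227) and kept its call without marrow M2-like macrophages alone (adjusted p = 0.0173, otherwise up to 0.157).

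**Figure D3:**
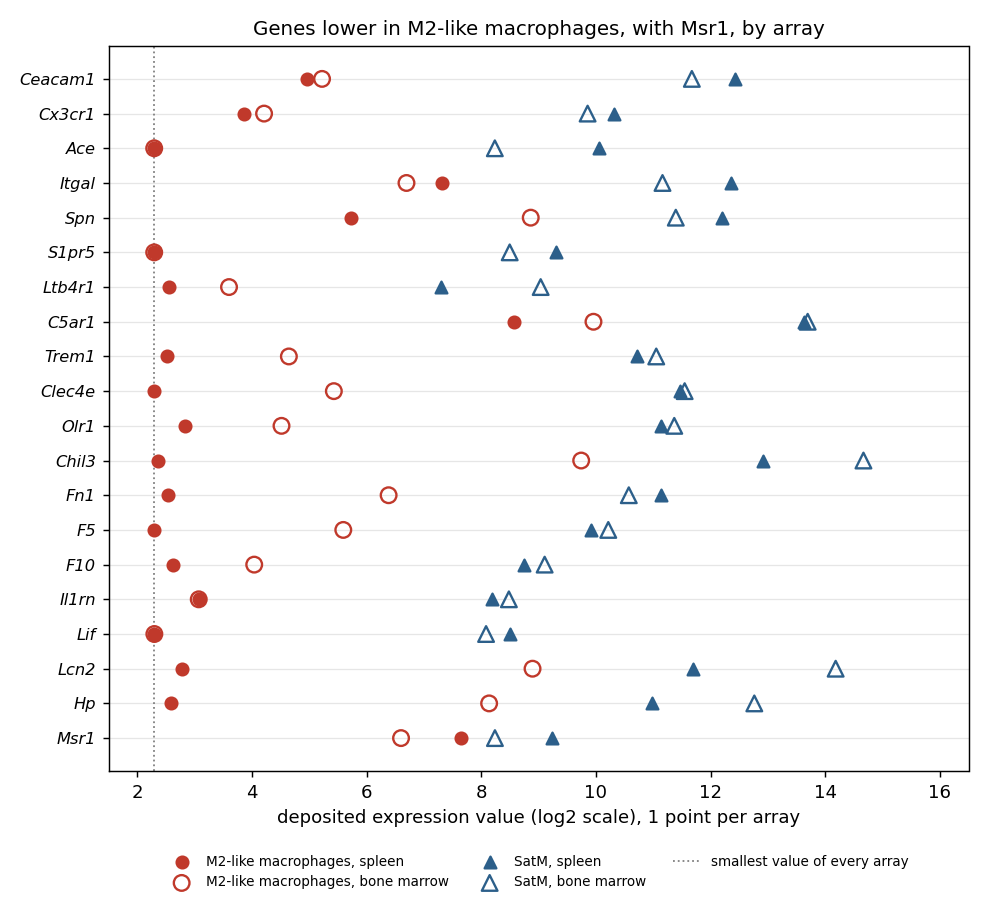
Deposited log2 expression values of 19 genes that were lower in M2-like macrophages, and of Msr1, which was not called (x axis), 1 point per array, in M2-like macrophages (red circles) and SatM (blue triangles) of spleen (filled) and bone marrow (open). Marrow macrophages lie above spleen macrophages for Chil3 (9.74 against 2.37), Lcn2 (8.90 against 2.77) and Hp (8.14 against 2.60).

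Marrow macrophages held more RNA of several fallen genes than spleen macrophages did. Of the 260 lower genes, 63 were higher by 1 or more in marrow than in spleen macrophages and 15 the other way. All 11734 genes tested leaned to marrow too, with 2150 higher there and 892 the other way, so the lean is not particular to fallen genes. The summed linear level of neutrophil granule and surface genes was 172 in spleen and 29874 in marrow M2-like macrophages, against 44665 in spleen and 171684 in marrow SatM. Within this list of 15 tested genes, 1 was called (Lcn2, lower), and the median was -2.93. S100a8 measured 3.72 and 11.89 in spleen and marrow M2-like macrophages, against 13.32 and 15.09 in spleen and marrow SatM (-6.40, adjusted p = 0.0652), and Camp, an antimicrobial peptide, measured 2.96 and 8.75 in spleen and marrow M2-like macrophages, against 12.12 and 14.69 in spleen and marrow SatM (-7.55, adjusted p = 0.0831). Neither was called. The part of neutrophil RNA in the values of Chil3, Hp, Lcn2 and other secreted proteins was not tested. The 2 bone marrow SatM arrays of the first part of the series correlated with the panel's marrow SatM array at r = 0.914 and 0.913 across genes, and with them in its place 1063 genes were called, of which 565 were shared (81.1% of the 697 and 53.2% of the 1063). Among fallen genes, Lif, Oasl1, Fn1 and Saa3 were low on these 2 arrays. For F5 (5.36 and 6.56) and Chil3 (9.48 and 10.96) the lower value lay below marrow macrophages. Krt80 (12.15 and 12.20) and S1pr5 (11.63 and 11.84) were high there.

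Several functions gave few or no calls. With 5.94% of all genes tested called (3.72% higher, 2.22% lower), few calls are due in lists this short. These counts therefore say little about the functions. Of 16 genes of MHC class II presentation and 21 chemokine genes, 0 were called, with medians of 0.69 and -1.41. H2-Aa measured 12.96 and 12.35 in spleen and marrow M2-like macrophages, against 12.27 and 11.43 in spleen and marrow SatM (0.80, adjusted p = 0.955). Of 21 interferon-stimulated genes 1 fell, Oasl1 (-4.84, limma adjusted p = 0.0278, lost without any one array), and the median was 0.72. Oasl1 was at the floor on the 2 other bone marrow SatM arrays of the series. Fc and Toll-like receptors had 1 of 20 higher, Tlr4, the endotoxin receptor (3.33, limma adjusted p = 0.0423), and 2 lower: Fcgr2b, the inhibitory Fc receptor (-3.71, limma adjusted p = 0.0443), and Myd88, the adaptor of Toll-like receptors (-1.60, limma adjusted p = 0.0345). Tlr4 and Myd88 lost their calls without any one array (0.093 to 0.239), and Fcgr2b kept its call without marrow M2-like macrophages alone (adjusted p = 0.049, otherwise up to 0.272).

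The remaining lists of other cells had 0 calls among 8 basophil and mast cell, 13 B cell, 12 T cell, 11 NK cell and 14 dendritic cell genes. With 5.94% of all genes tested called, 0 calls in lists this short say little about these cells. B cell genes summed to 11413 and 5548 in spleen and marrow M2-like macrophages, against 6671 and 2572 in spleen and marrow SatM. T cell genes summed to 1184 and 354 in spleen and marrow M2-like macrophages, against 463 and 21 in spleen and marrow SatM. Most of the marrow macrophage sum came from Cd4, at 7.80, against 4.85 in spleen macrophages. Cd3e went the other way, at 5.26 in marrow and 8.37 in spleen macrophages. In spleen the B cell sum was higher mainly through Jchain and Ighm (Ighm 11.63 in macrophages, 10.02 in SatM), while Cd79a measured 8.46 in macrophages and 8.56 in SatM, and the median spleen difference of the list was 0.00. Immediate-early genes (18 tested) had 0 calls and lung macrophage genes had 2 of 13 lower (Chil3 and Il1rn).

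**Figure D4:**
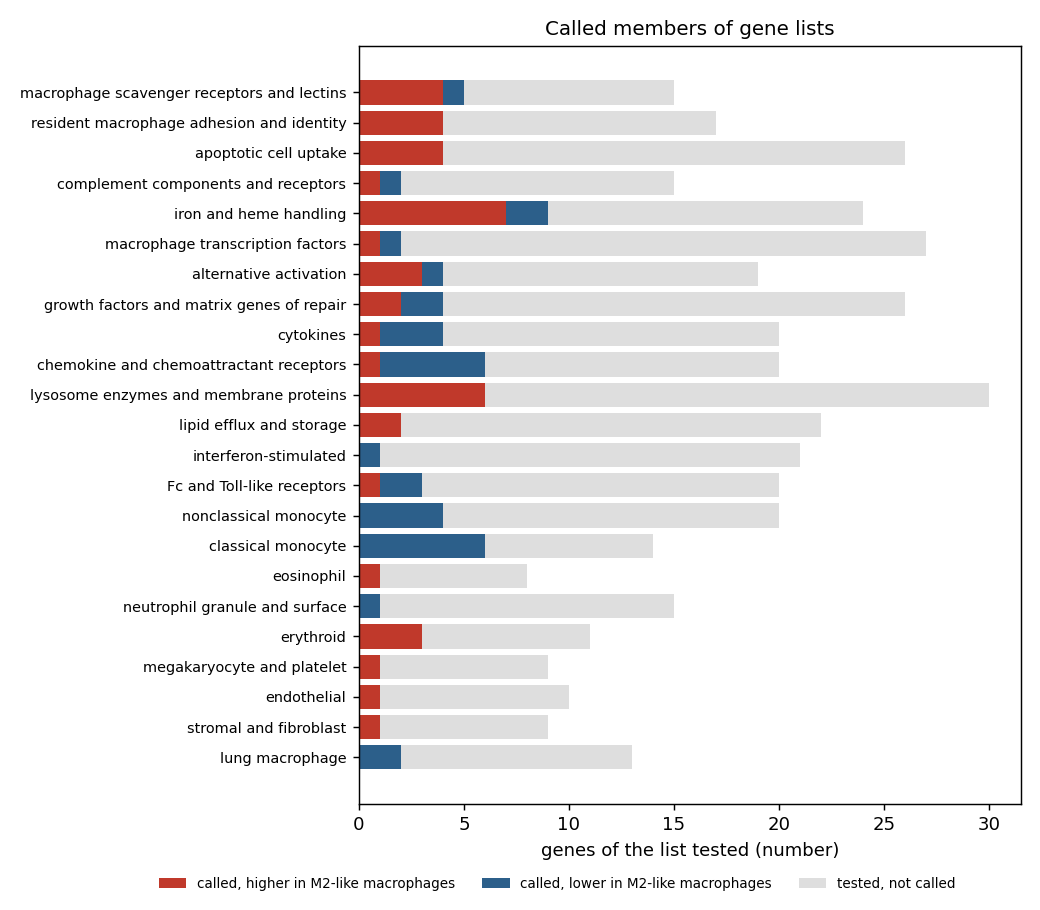
Number of genes tested in each list with at least 1 called member (x axis), split into those called higher in M2-like macrophages (red), called lower (blue) and not called (grey). Iron and heme genes had 7 higher and 2 lower, lysosome genes 6 and 0, and classical monocyte genes 0 and 6.

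Whether the macrophages differ from SatM by different genes in the 2 tissues was asked by the double difference, spleen M2-like minus SatM less marrow M2-like minus SatM. By limma 24 genes (0.205%) were called, 7 with the larger spleen difference and 17 with the larger marrow difference, and 443 had an unadjusted p under 0.05. Each value rests on 1 array in each of the 4 groups, with the spread taken from the other 11 arrays, which were all at the floor for 13 of the 24 genes. The count was 0 with a stricter filter, without trend, with robust estimation and without the lung arrays, so none of these calls is independent of the settings. For 3 of the 24 (Lin7b, Calml4 and Ackr3) the difference came from a spleen SatM array above the floor.

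Vsig4, a complement receptor of resident macrophages, measured 2.59 in spleen and 8.40 in marrow M2-like macrophages and was at the floor in both SatM arrays (double difference -5.81). It passed the filter only through the 2 macrophage arrays, so this is given as a level and not as a test. Cxcl12, the chemokine that retains cells in the marrow, was at the floor in spleen M2-like macrophages and measured 7.99 in marrow M2-like macrophages, against 2.30 and 3.19 in spleen and marrow SatM (-4.80, limma adjusted p = 0.0294). Cxcl12 is also a gene of marrow stromal cells, and the stromal genes Pdgfrb and Sparc were likewise at the floor in spleen macrophages and above it in marrow macrophages, as given above. The part of stromal RNA was not tested. Ccl8, a chemokine, measured 6.28 in marrow M2-like macrophages and was at the floor on the other 3 arrays (-3.99, limma adjusted p = 0.0482). All 3 lay high in marrow macrophages alone.

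In the other direction, Hbegf, a growth factor that binds the EGF receptor, measured 6.98 in spleen and 2.50 in marrow M2-like macrophages, against 2.40 on both SatM arrays (4.48, limma adjusted p = 0.0397). Pcolce2, which assists collagen processing, measured 8.95 and 3.90 in spleen and marrow M2-like macrophages and was at the floor in both SatM arrays (5.05). Dlg2, a scaffold protein best known from synapses, measured 9.12 in spleen M2-like macrophages and was at the floor on the other 3 arrays (6.82, limma adjusted p = 0.0397). The long noncoding RNA gene Meg3 measured 6.95 and 2.51 in spleen and marrow M2-like macrophages, against 2.30 on both SatM arrays (4.43). Vsig4, Pcolce2, Meg3 and Trpc1 passed the filter only through the 2 macrophage arrays. All other panel arrays were at the floor for them, and also for Slc35d3, Tspan15 and Lin7b. These genes are among the 13 of 24 with all other panel arrays at the floor. The double differences of such genes are levels and not tests.

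The macrophages of spleen and marrow were then set side by side, with 1 array each and so without a test. A difference of at least 2 was found for 237 genes higher in spleen (2.02%) and 681 higher in marrow (5.8%). SatM of the same tissues showed 201 (1.71%) higher in spleen and 562 (4.79%) higher in marrow. Among the 9614 genes for which the SatM arrays lay within 1 of each other, macrophages differed by at least 2 in 140 (1.46%) higher in spleen and 272 (2.83%) higher in marrow.

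Of 29 cell cycle genes, 24 were higher by 2 or more in marrow than in spleen macrophages, and 23 in marrow than in spleen SatM. Top2a, a topoisomerase of dividing cells, measured 4.80 and 9.69 in spleen and marrow M2-like macrophages, against 6.84 and 10.31 in spleen and marrow SatM. Between M2-like macrophages and SatM, 0 of the 29 were called (median -0.90). Erythroid genes had 10 of 11 higher by 2 or more in marrow than in spleen macrophages (6 of 11 in SatM), neutrophil genes 11 of 15 (10 in SatM), basophil and mast cell genes 6 of 8 (5 in SatM) and megakaryocyte genes 5 of 9 (0 in SatM). T cell genes went the other way, with 7 of 12 higher in spleen macrophages (6 in SatM). The megakaryocyte genes apart, each of these lists leaned to the same tissue in SatM as in macrophages. The part of other cells in the 681 and 237 genes was not tested.

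Among genes with SatM arrays within 1, the largest excesses in spleen macrophages were Sned1 (7.93), 2900052N01Rik (7.32), Adgrl3 (6.89), Dlg2 (6.82), Cbln1 (6.40), Adam23 (6.28), Cdk14 (5.20), Zdhhc2 (5.16), Gm6377 (5.09) and Pcolce2 (5.05). Sned1, which encodes a matrix protein, measured 10.22 in spleen macrophages and was at the floor on the other 3 arrays, as were Adgrl3, an adhesion receptor of the latrophilin family (9.19 in spleen macrophages), and Cbln1, a secreted synaptic organiser (8.69). Cdk14, a cyclin-dependent kinase, was instead low in marrow macrophages: it measured 7.49 and 2.30 in spleen and marrow M2-like macrophages, against 7.67 and 6.93 in spleen and marrow SatM.

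The largest excesses in marrow macrophages, given as spleen minus marrow, were Smim3 (-7.36), Ypel4 (-6.93), Rnase4 (-6.36), Tmem176b (-6.17), Tmem176a (-5.98), Vsig4 (-5.81), Cxcl12 (-5.69), Pdzk1 (-5.44), P2ry6 (-5.34) and Plekhh1 (-5.19). For several, spleen macrophages lay below SatM. Tmem176b, a membrane protein of myeloid cells and a neighbour in name of Tmem176a, measured 4.31 and 10.48 in spleen and marrow M2-like macrophages, against 8.12 and 8.03 in spleen and marrow SatM. P2ry6, a receptor for the nucleotide UDP, measured 3.09 and 8.43 in spleen and marrow M2-like macrophages, against 8.33 and 8.22 in spleen and marrow SatM. Rnase4, a secreted ribonuclease, measured 4.22 and 10.57 in spleen and marrow M2-like macrophages, against 6.42 and 6.93 in spleen and marrow SatM.

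Beyond the 20 largest, and chosen after their values were seen, Lyz2, lysozyme of myeloid cells, measured 8.79 in spleen and 13.52 in marrow M2-like macrophages, against 14.65 and 14.73 in spleen and marrow SatM. Folr2, a folate receptor of resident macrophages, was at the floor in spleen macrophages and measured 6.49 in marrow macrophages, against 2.57 and 2.30 in spleen and marrow SatM. Kcnj16, a potassium channel gene, rose in both tissues but more in spleen: it measured 11.12 and 6.50 in spleen and marrow M2-like macrophages and was at the floor in both SatM arrays, at least 91.1-fold higher (limma adjusted p = 0.0168, lost without spleen SatM, 0.132).

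**Figure D5:**
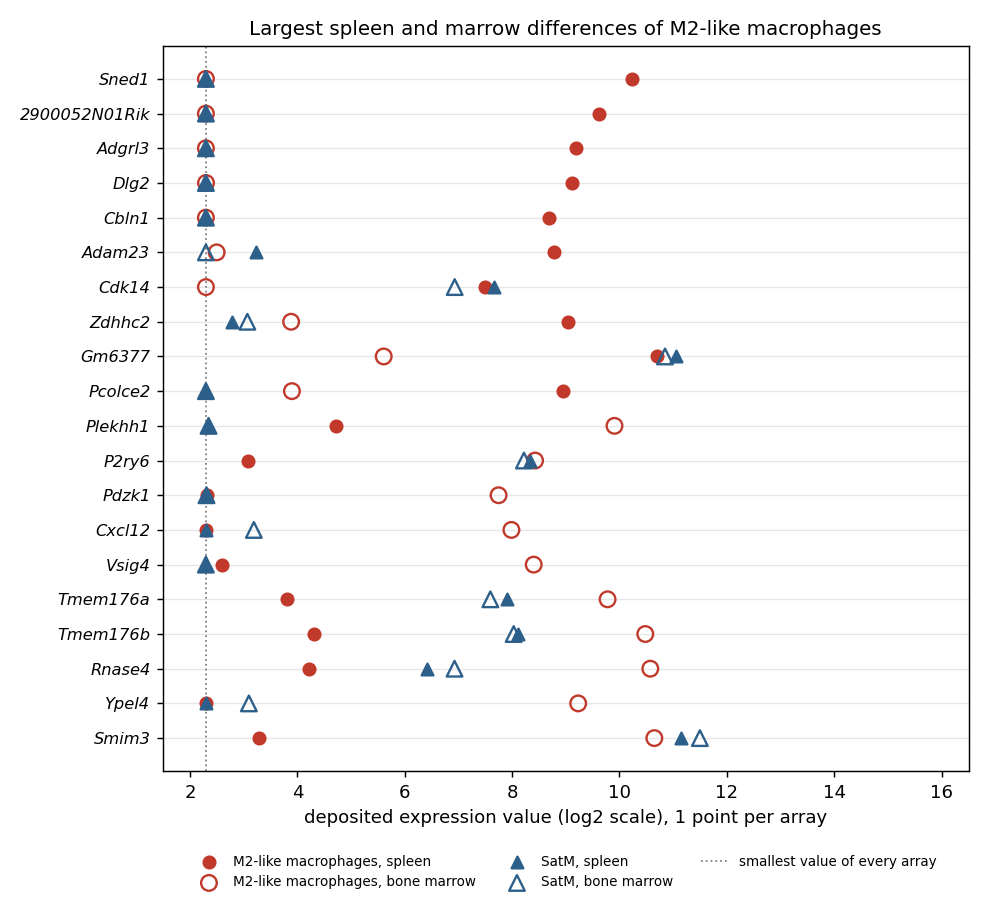
Deposited log2 expression values (x axis) of the 10 genes with the largest excess in spleen over marrow M2-like macrophages and the 10 with the largest excess in marrow, among genes whose SatM arrays lay within 1 of each other, 1 point per array. SatM (blue triangles) of spleen (filled) and marrow (open) lie together, while M2-like macrophages (red circles) of spleen (filled) and marrow (open) lie at least 5.05 apart.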

How the data were processed

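Total RNA of flow-sorted mouse cells was measured on 35 Affymetrix arrays. The deposited table holds log2 expression values, normalised by the authors. The base of the logarithm was inferred from the range, and the method is not given in the sources used here. Of 45101 probe sets, 34945 carried 1 gene symbol (9160 had none, 932 several and 64 were controls), and 34741 matched the gene table by Entrez identifier. Each of 18193 genes was represented by its brightest probe set, by mean over all 35 arrays (9010 had several). With every probe set tested, some calls were not shared. Called sets were 1 of 4 for Dst, and 1 of 3 for F10, Il1rn, Hgf, Tnfsf13b and Ctsc. They were 1 of 2 for Plekhg1, F5, Cx3cr1, Spn, Fn1 and Kcnj16. All sets tested were called for Igf1, C2, Slc16a9, Pdgfc and Paqr9. The array medians were 2.31 to 2.39 and the 75th percentiles 6.09 to 6.56. The number of arrays limits the precision.

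Genes were tested where at least 2 panel arrays exceeded the array's median. Limma 3.58.1 in R 4.3.3 (lmFit, eBayes with trend) was fitted to the 15 panel arrays with 7 cell type levels and tissue, which leaves 5 residual degrees of freedom. The fitted difference equals the mean of the spleen and marrow differences. Calls needed a Benjamini-Hochberg adjusted p under 0.05 over all genes tested and a difference of at least 1. The double difference gave each compared array a level of its own (3 residual degrees of freedom). The fits were tested on simulated data.

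The comparison, its markers and the 32 gene lists were chosen with earlier results of these data known. The rule for named genes took the 12 largest rises and falls among called genes alike in both tissues, up to 5 called members of lists with at least 3, a fixed set of macrophage and sort genes, up to 10 per direction for the double difference and 10 per direction for spleen against marrow. Ly6c2, in the fixed set, has no probe set in the gene table used here. Other genes were chosen after their values were seen, among them Hmox1, Slc48a1, Blvra, Aco1, Slc40a1, Nr1h3, C2, Kitl, Ccr2, the C1q chains, Siglec1, Gas6, Clec1b, Nfe2l2, Ctsc, Oasl1 and the markers of other cells. Alternatives were other normalization, filters, probe set choices, eBayes settings, sets of arrays and terms, and leaving out each compared array. Summed levels add 2 to the power of the log2 value, less the floor. Python 3.11.15, pandas 2.3.3, numpy 2.4.6 and matplotlib 3.10.9 were used.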

Additional observations from a re-analysis of the deposited data

Results flagged for a closer look

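The M2-like difference from SatM differed between spleen and marrow for 24 genes by the test of the double difference itself, spleen minus marrow. Larger marrow differences were found for Vsig4 (-5.81), Slc35d3 (-5.12), Cxcl12 (-4.80), Sowaha (-4.38), 1300017J02Rik (-4.28), Ccl8 (-3.99), Gnaz (-3.87) and Syndig1l (-3.58), each through the marrow macrophage array. Lin7b (-3.98) and Calml4 (-3.51) had negative values because spleen SatM measured 6.15 and 5.81 there, with the other 3 arrays near the floor. Larger spleen differences were found for Dlg2 (6.82), Tspan15 (5.26), Pcolce2 (5.05), Hbegf (4.48), Meg3 (4.43), Flacc1 (3.79) and Trpc1 (3.09). Vsig4, Pcolce2, Meg3 and Trpc1 passed the filter only through the 2 macrophage arrays, so their values are levels and not tests. All other panel arrays were at the floor for 13 of the 24 genes, Slc35d3, Tspan15 and Lin7b among them. Values of those genes are levels too. Each of the double differences rests on 1 array in each of the 4 groups. Groups of 2 arrays were too small for a check of outlying samples.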

How the results depend on the processing

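Against 697 genes called between M2-like macrophages and SatM, fits without 1 of the 4 arrays called 125 to 286 genes, of which 116 to 211 were among the 697. The count was 298 with no filter on dim genes, where 18193 genes were tested, 1159 with every probe set, 0 with the 4 compared arrays alone (2881 by limma at an unadjusted p under 0.05), which leaves 1 residual degree of freedom, 1143 with 2 other marrow SatM arrays added, 1063 with these in place of the panel array, and 430 with no tissue term. It stayed within 1.5 times with the other alternatives (691 to 975). The double difference, 24 genes, gave 157 with no filter, 64 with every probe set, 71 with all panel SatM arrays as 1 type, 89 and 109 with the other marrow SatM arrays added and in place, and 0 with a filter at the 60th percentile (257 unadjusted), without trend (444), with robust estimation (376) and without the 4 lung arrays (854), the last with 1 residual degree of freedom. The cause of the other changes was not tested. The 918 genes apart by 2 or more between spleen and marrow macrophages were 1485 with every probe set, 3042 at a difference of 1 and 390 at 3, and with quantile normalization the split of 237 and 681 became 319 and 596. Of the 72 called genes followed singly, 16 kept their call without each array, 3 (Ccr3, Itga9, Kitl) failed the filter without either macrophage array, 21 lost it in 1 to 3 of these fits and 32 in all 4. None of these called genes changed direction under any alternative. No paired analysis was possible because the compared titles carry no replicate number, other than by tissue, which is a term of the fit and whose removal gave the 430 above.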
